A study of Mus musculus with 12 samples.

Results

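Bone marrow of infarcted mice that were given EMPA (MI-E, 3 libraries) was compared with marrow of sham-operated mice that were not given it (Sham, 3 libraries). These are 6 of the 12 RNA-seq libraries of the series. The other 6 come from sham mice with EMPA (Sham-E) and from infarcted mice without it (MI). All mice are labelled C57BL/6N, with no other allele or agent, and infarction was by ligation of the LAD artery under anaesthesia. The comparison asks what stays away from the untreated sham level after infarction with EMPA. Because infarction and EMPA both differ between the groups, their shares in a difference cannot be told apart here. The libraries were chosen by their column names, which give a group and a number, and they are named here by both (Sham 1, 3 and 4; MI-E 2, 3 and 4). Neither the time after surgery nor the dose is given. Since no label ties a library to a mouse of its own, p-values measure only the spread between these samples, which may be technical.

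Bone marrow makes blood cells. Its neutrophils and monocytes arise next to B-cell precursors, which rearrange their antigen-receptor genes there before leaving, and osteoblasts and other stromal cells form the niche. Most cells also carry an interferon programme: interferons signal from their receptors to transcription factors that bind a short DNA element, the interferon-stimulated response element, and switch on antiviral genes. Glucocorticoid hormones act through another receptor and induce a separate group of genes.

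The gene lists with the lowest medians in MI-E were those of B-cell precursors and of the antiviral programme. All 44 measured genes of the interferon response list had negative fold changes, with a median log2 fold change of -1.19. The 25 measured genes of early B-lineage cells had a median of -1.20. Ribosomal protein genes were higher as a group, with a median of 0.44 over 77 genes. The median over all 15119 genes tested was 0.02. Medians were -0.02 for mature B-cell genes, 0.06 for DNA replication genes and -0.15 for the histone clusters. How far single genes pass a test depends on which libraries set the spread, and both answers are given first.

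With edgeR's quasi-likelihood test fitted to all 12 libraries, the share of genes called at an adjusted p below 0.05 was 0% (0 of 15119). The smallest adjusted p was 0.142, and 2070 genes had an unadjusted p under 0.05. With the same test fitted to the 6 libraries of the comparison alone, 2192 of 14466 genes were called (15.2%), 1074 higher in MI-E (7.42%) and 1118 lower (7.73%). Of these, 193 were higher and 284 lower by more than 2-fold. Fold changes hardly differ between the fits, but the spread does: the common biological coefficient of variation of edgeR was 0.256 over 12 libraries and 0.141 over 6. DESeq2 fitted to the 12 libraries called 174 genes. In 5455 genes (36.1%) the 3 MI-E libraries all lay on one side of the 3 Sham libraries, 2872 higher (19%) and 2583 lower (17.1%).

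One library outside the comparison moves the 12-library count most. Without Sham-E 1, edgeR called 250 genes, 89 higher and 161 lower, and all 250 were among the 2192 with the same direction. Sham-E 1 had a level of early B-lineage genes of 3.09 in mean log2 CPM, against 5.71 and 5.74 in the other Sham-E libraries. The median absolute log2 deviation of its genes from their group mean was 0.244, while the 6 compared libraries ran from 0.0919 to 0.147. The 6-library count itself moved with single libraries: it was 725 without Sham 4, 1038 without Sham 3, 1082 without Sham 1 and 1175 without MI-E 2. Higher and lower calls were 271 and 454 of 14812 genes without Sham 4, and 452 and 586 of 14832 without Sham 3. They were 465 and 617 of 14819 without Sham 1, and 482 and 693 of 14783 without MI-E 2. Without MI-E 3 they were 1142 and 1187 of 14849, and without MI-E 4 1007 and 1091 of 14802. Below, each adjusted p is from edgeR's quasi-likelihood test, with the fit named, and a gene described as passing did so in the 6-library fit and not in the 12-library fit. The shares to set beside a list's count of passing genes are 7.42% higher and 7.73% lower, over all genes of that 6-library fit. Counts of a list from other fits are to be set beside the all-gene counts of the same fit. Limma on log2(TPM + 1) of the 6 libraries called 225 of 14466 genes higher and 1520 lower. DESeq2 on 12 libraries called 70 of 15119 higher and 104 lower.

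**Figure D1:**
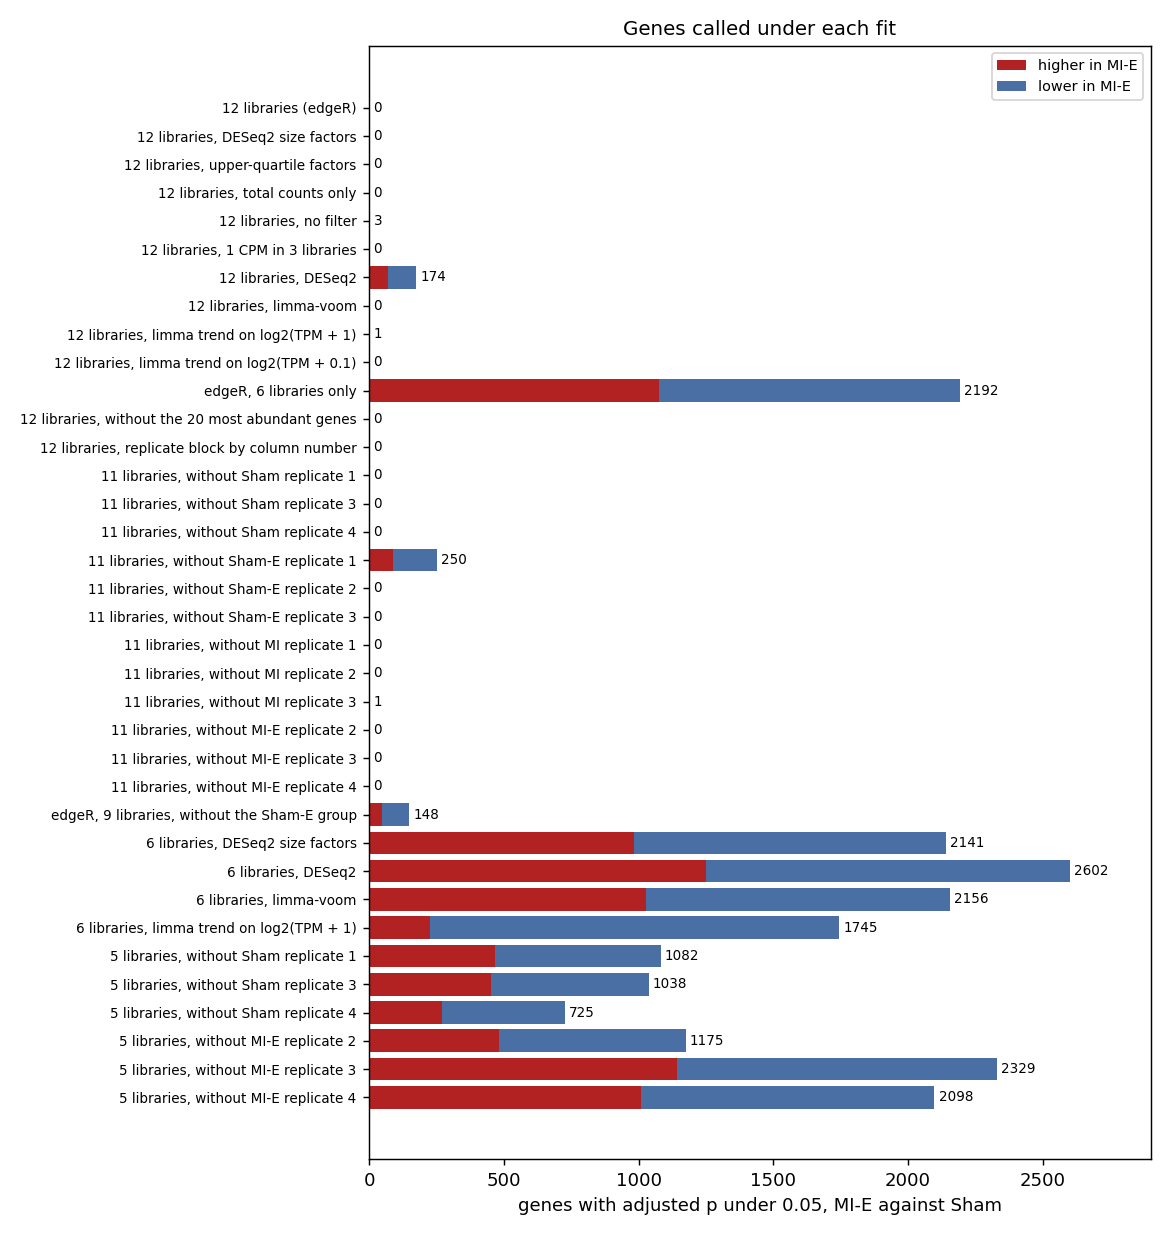
Genes with an adjusted p under 0.05 for MI-E against Sham (x axis, number of genes) under each fit (y axis), split into higher (red) and lower (blue) in MI-E. The fit to 12 libraries gives 0, the fit without Sham-E 1 gives 250, and the fits to the 6 libraries or to 5 of them give 725 to 2602.

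Total counts ran from 21175087 to 24606783 over the 12 libraries. Correlations of log2 CPM between libraries of 1 group were 0.985 to 0.987 for Sham and 0.981 to 0.985 for MI-E. The mean insert length, recovered from the ratio of counts to TPM in genes with a single transcript, was 280.2 to 282.7 bp in MI-E and 284.1 to 286.9 bp in Sham, so the groups do not overlap in it. Its part in the results was not tested. Fold changes also varied with gene length. The median log2 fold change was 0.20 in the fifth of genes with the shortest exons (231 to 2108 bp) and -0.14 in the fifth with the longest. On the TPM scale, as a difference of log2(TPM + 1), the same bins gave -0.04 and -0.28, and the median over all genes was -0.15. The split of calls moves with that scale: limma on log2(TPM + 1) of the 6 libraries called 225 genes higher and 1520 lower.

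**Figure D2:**
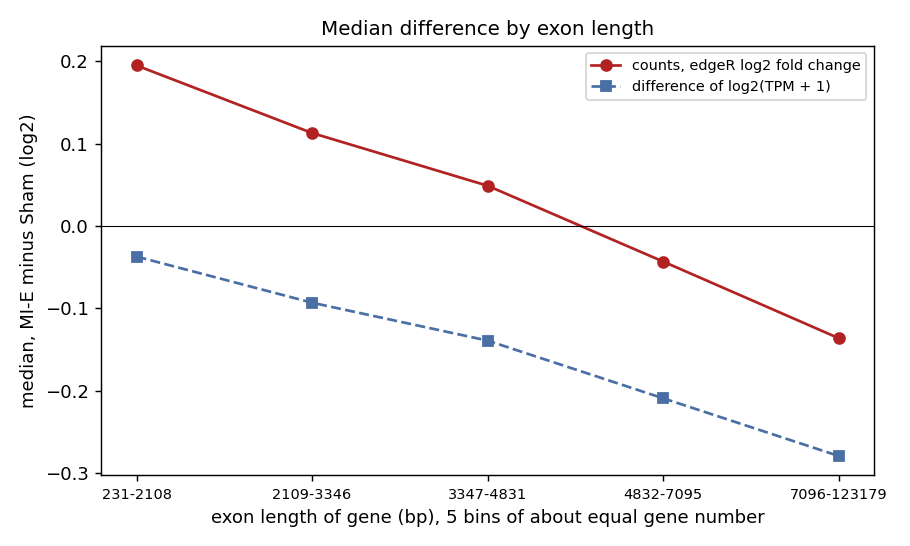
Median difference between MI-E and Sham (y axis, log2) in 5 bins of genes by exon length (x axis, bp), for edgeR fold changes of counts (red) and log2(TPM + 1) differences (blue). Both lines fall with length, from 0.20 to -0.14 and from -0.04 to -0.28.

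**Figure D3:**
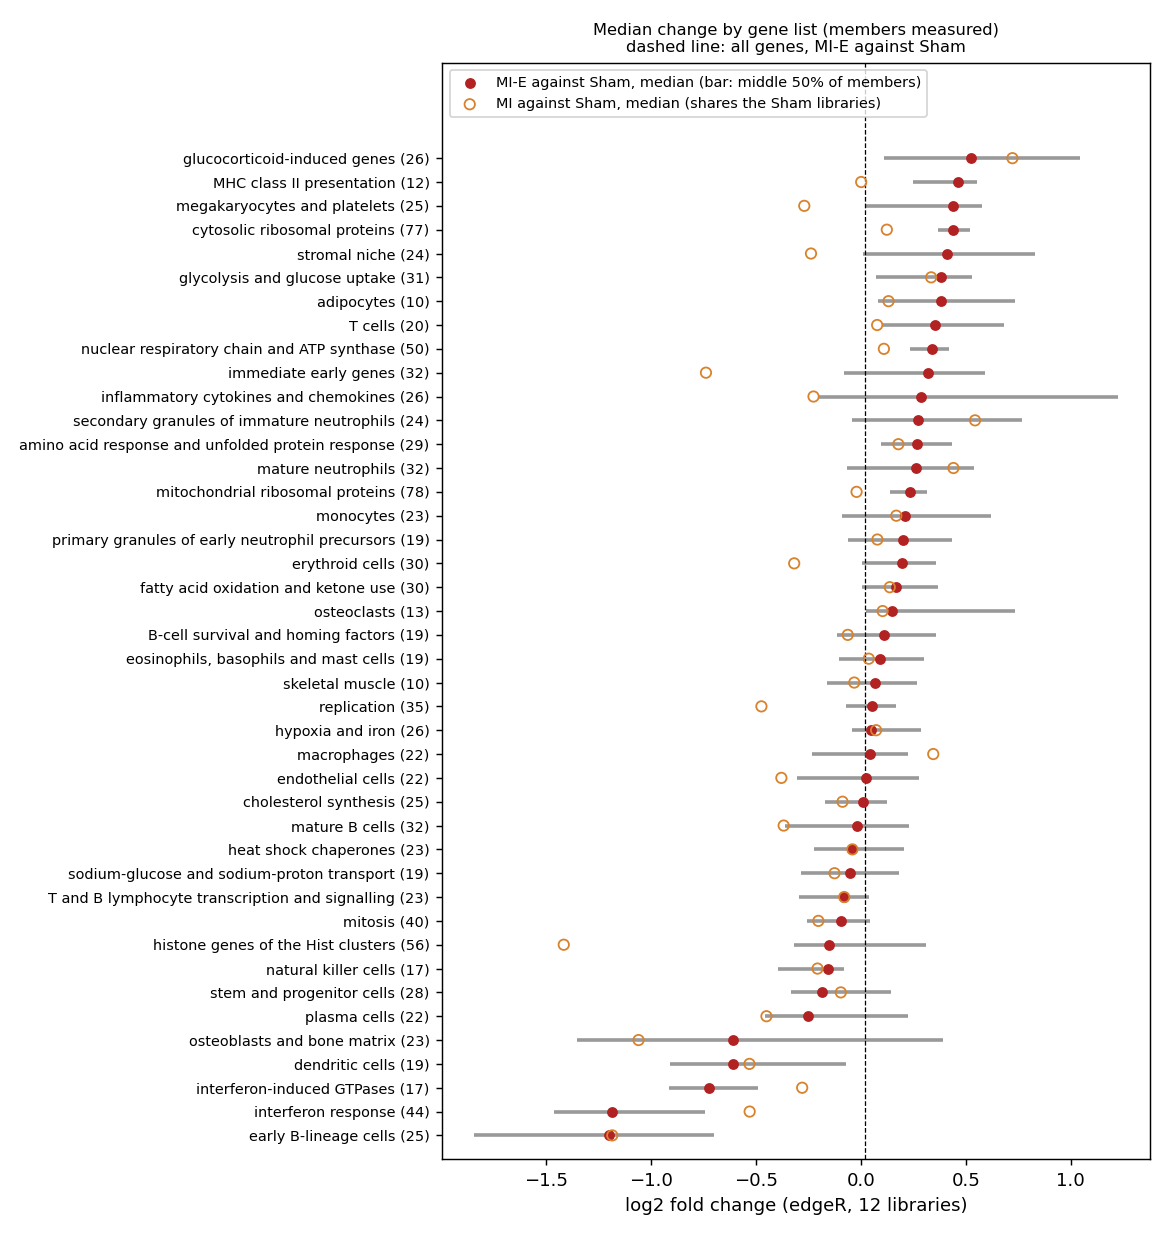
Median log2 fold change (x axis) of each gene list with 10 or more measured members (y axis, number in brackets) for MI-E against Sham (filled, with a bar over the middle 50% of members) and for MI against Sham (open), which uses the same Sham libraries. Early B-lineage and interferon genes lie farthest to the left in MI-E.

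The antiviral genes come with a DNA element that can be read from their promoters. RefSeq promoters (GRCm38.p6, 250 bases before to 50 after the start) were matched by symbol for 31 of the 44 interferon response genes and for 10 of the 17 interferon-induced GTPases. They were searched for the core of the element, GAAANNGAAA, on both strands (TTTCNNTTTC on the other). It was present in 16 of the 31 promoters (51.6%) and in 9 of the 10 (90.0%), against 427 of 10783 genes tested (4.0%) and 1131 of 32851 promoters in the table (3.4%). In lists searched for comparison, it was in 1 of 21 promoters of early B-lineage genes (4.8%), 1 of 23 of glucocorticoid-induced genes (4.3%) and 7 of 57 of cytosolic ribosomal proteins (12.3%). Since so many members have no promoter in the table, these shares describe the matched promoters and are void as a check of either whole list. A match is a run of letters, and no binding was measured here. Shown are, for each of both lists, the 2 genes with the smallest p in the 12-library fit among those with a match, 5′ to 3′ on the gene's strand, with the match in capitals. Eif2ak2 is at chr17:78882523-78882822 (minus strand), Stat2 at chr10:128270248-128270547 (plus), Irgm1 at chr11:48871371-48871670 (minus), where 2 matches overlap, and Irgm2 at chr11:58214727-58215026 (plus).
Eif2ak2: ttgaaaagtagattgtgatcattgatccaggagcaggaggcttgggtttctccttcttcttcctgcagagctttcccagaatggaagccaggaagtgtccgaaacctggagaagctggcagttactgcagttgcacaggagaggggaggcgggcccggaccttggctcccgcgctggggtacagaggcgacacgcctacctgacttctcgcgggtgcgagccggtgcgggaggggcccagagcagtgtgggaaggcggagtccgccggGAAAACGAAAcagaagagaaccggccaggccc
Stat2: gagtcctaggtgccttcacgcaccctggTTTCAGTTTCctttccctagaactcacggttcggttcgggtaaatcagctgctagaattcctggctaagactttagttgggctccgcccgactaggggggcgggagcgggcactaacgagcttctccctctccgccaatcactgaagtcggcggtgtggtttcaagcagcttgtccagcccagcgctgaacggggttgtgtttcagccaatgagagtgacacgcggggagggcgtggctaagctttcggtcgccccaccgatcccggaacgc
Irgm1: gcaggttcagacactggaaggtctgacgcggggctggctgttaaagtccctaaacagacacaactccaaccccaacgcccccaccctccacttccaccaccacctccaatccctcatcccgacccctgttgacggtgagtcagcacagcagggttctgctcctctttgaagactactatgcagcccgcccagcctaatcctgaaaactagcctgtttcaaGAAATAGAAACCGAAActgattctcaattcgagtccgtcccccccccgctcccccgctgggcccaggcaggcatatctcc
Irgm2: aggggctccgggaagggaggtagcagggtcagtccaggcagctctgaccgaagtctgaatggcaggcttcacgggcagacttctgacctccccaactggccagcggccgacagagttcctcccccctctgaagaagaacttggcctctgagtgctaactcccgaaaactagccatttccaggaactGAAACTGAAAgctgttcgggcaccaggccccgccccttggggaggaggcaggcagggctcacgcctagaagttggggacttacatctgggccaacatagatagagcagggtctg

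The interferon response list was lower in every MI-E library than in any Sham library. Its level, the mean log2 CPM of its 44 genes, was 5.29, 5.48 and 5.28 in Sham 1, 3 and 4 and 4.02, 4.25 and 4.14 in MI-E 2, 3 and 4. In the 6-library fit 42 of the 44 genes passed as lower and 0 as higher, with 7.73% of all genes as the background for lower calls. Of the 44, 36 had an unadjusted p under 0.05 in the 12-library fit, beside 1031 of all 15119 genes that were lower at that p. None of the 44 passed in that fit after adjustment. Without Sham-E 1 the 12-library fit called 17 of the 44, all lower, beside 161 of 15496 over all genes. DESeq2 on 12 libraries called 10 lower, beside 104 of 15119. In the 6-library fit, leaving out any 1 of the 6 libraries left 38 to 42 lower. The level of the list spread widely outside the comparison: 3.99, 5.48 and 5.59 in Sham-E 1, 2 and 3, and 4.27, 5.27 and 4.13 in MI 1, 2 and 3. MI 2 therefore lay near the Sham libraries, and Sham-E 1 near the MI-E libraries.

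The sensors and relays of the pathway were among the lower genes. Eif2ak2, the kinase PKR that halts translation when it meets double-stranded RNA, was 60.1, 54.1 and 57.2 CPM in Sham and 28.0, 24.3 and 29.1 CPM in MI-E. The groups did not overlap, and the log2 fold change was -1.08 ± 0.25 (SE), with an adjusted p of 0.259 in the 12-library and 3.05e-04 in the 6-library edgeR fit. Stat2, part of the factor that binds the element, was 69.1, 76.4 and 75.1 CPM in Sham and 45.6, 38.9 and 47.3 CPM in MI-E, with no overlap (-0.74 ± 0.20, 6-library adjusted p 0.00147, edgeR). Irf7, which amplifies interferon production, had a log2 fold change of -1.25 ± 0.51, and Dhx58, a regulator of RNA sensing, of -0.75 ± 0.19.

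The effectors named here from the list behaved alike in direction. The list does not hold every gene named for interferon. Ifitm1 and Ifitm6, placed on the neutrophil lists, were higher (2.02 ± 0.52 and 1.25 ± 0.43) and are given with the myeloid genes. Ifit2, a protein that blocks translation of viral RNA, was 22.1, 24.3 and 24.9 CPM in Sham and 14.8, 13.3 and 14.9 CPM in MI-E (-0.73 ± 0.17; edgeR adjusted p 0.259 with 12 libraries, 0.00288 with 6). Ifit1, of the same family, was 23.9, 23.1 and 24.0 CPM in Sham and 5.88, 6.53 and 7.37 CPM in MI-E, the larger difference of the pair (-1.84 ± 0.64). Isg15, a ubiquitin-like modifier, was 55.7, 70.2 and 58.3 CPM in Sham and 24.0, 24.5 and 25.8 CPM in MI-E. None of these overlapped between the groups. Mx2, a GTPase against viral nucleocapsids, had 103, 118 and 101 counts in Sham and 21, 25 and 20 in MI-E, a log2 fold change of -2.14 ± 0.53. Ifit1, Isg15, Stat2 and Irf7 were chosen after their values were seen; the others follow the rule for named genes.

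The interferon-induced GTPases, which act on membranes around intracellular pathogens, were lower as well. All 17 had negative fold changes (median -0.72), and 12 of the 16 in the 6-library fit passed as lower, beside 7.73% of all genes. The count was 6 without Sham 1, Sham 3 or Sham 4, 7 without MI-E 2, and 9 without MI-E 3 or MI-E 4. Irgm1 was 49.8, 54.7 and 53.4 CPM in Sham and 28.0, 25.7 and 30.2 CPM in MI-E (-0.91 ± 0.32; adjusted p 0.285 with 12 libraries and 5.11e-04 with 6, edgeR). Irgm2 was 33.2, 43.3 and 38.4 CPM in Sham and 19.2, 18.8 and 19.9 CPM in MI-E. Both were lower in all 3 MI-E libraries. Gbp7 (-0.66 ± 0.26) and Ifi47 (-0.53 ± 0.22) also passed; 11.3% of Gbp7 exon bases are shared with other genes. In these bulk samples, fewer cells of a type and less RNA per cell cannot be told apart.

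Early B-lineage genes formed the other group that was clearly lower. Their level was 5.70, 5.96 and 5.98 in Sham and 4.78, 4.59 and 4.60 in MI-E. The groups did not overlap, and the level was likewise 4.44, 4.996 and 4.69 in MI 1, 2 and 3. In the 6-library fit 21 of 25 genes passed as lower and 0 as higher, beside 7.73% and 7.42% of all genes. Leaving out 1 library left 19 to 21 lower. Without Sham-E 1, edgeR called 18 lower, beside 161 of 15496 over all genes. DESeq2 on 12 libraries called 5 lower, beside 104 of 15119. On the TPM scale the median difference was -1.25, or -1.09 relative to all genes.

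The recombinase and the surrogate light chain, which mark pro-B and pre-B cells, showed the largest differences of the list. Igll1, a component of the surrogate light chain, was 39.8, 42.8 and 50.9 CPM in Sham and 7.57, 5.29 and 6.05 CPM in MI-E. Vpreb1, its partner, was 32.9, 31.4 and 36.6 CPM in Sham and 6.98, 5.34 and 6.28 CPM in MI-E. Both were several times lower in every MI-E library, and both had an adjusted p of 1.81e-05 in the 6-library edgeR fit, the smallest of all genes; in the 12-library fit these were 0.295 and 0.305. Their values in Sham-E 1, 0.13 and 0.216 CPM, were lower still. Rag1, the recombinase, was 126, 254 and 260 CPM in Sham and 46.7, 36.5 and 32.6 CPM in MI-E (-2.46 ± 1.13; adjusted p 0.369 with 12 libraries and 0.00371 with 6). Sham 1 was the lowest Sham library, yet above all of MI-E. Rag2 (-2.57 ± 0.99) and Dntt, the polymerase that adds untemplated bases (-1.84 ± 0.47), also passed.

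Regulators of the lineage were lower by less. Pax5, which commits cells to the B lineage, was 168, 221 and 181 CPM in Sham and 85.7, 97.1 and 87.9 CPM in MI-E. Myb, which precursors need, was 266, 285 and 330 CPM in Sham and 170, 149 and 169 CPM in MI-E, again with no overlap. The log2 fold changes were -1.08 ± 0.31 and -0.85 ± 0.19, and the adjusted p of Myb was 0.259 with 12 libraries and 0.0013 with 6 (edgeR). Smarca4 (-0.80 ± 0.21), a chromatin remodeller, Arpp21 (-1.92 ± 0.49) and Cd93 (-0.70 ± 0.14), a surface protein of immature B cells, passed as well. Il7r, the receptor that drives expansion of precursors, did not: 46.6, 59.8 and 57.4 CPM in Sham overlapped 54.5, 31.4 and 47.6 CPM in MI-E (edgeR adjusted p 0.81 and 0.316). Igll1, Vpreb1, Rag2, Dntt and Pax5 were chosen after their values were seen.

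Mature B-cell genes, by contrast, had a median near 0. The median of the 32 genes was -0.02, from -0.17 without MI-E 3 to 0.15 without Sham 3. Of them 2 passed as higher and 6 as lower (7.42% and 7.73% over all genes), 1 to 3 and 4 to 7 over the omissions. Limma on log2(TPM + 1) called 0 higher and 8 lower, beside 225 and 1520 of 14466 over all genes. The list levels overlapped (5.76 to 6.24 in Sham, 5.71 to 6.11 in MI-E). Ms4a1, which encodes CD20, was 106, 145 and 102 CPM in Sham and 86.3, 116 and 85.0 CPM in MI-E. Cd79a, through which the B-cell receptor signals, was 221, 338 and 236 CPM in Sham and 192, 245 and 191 CPM in MI-E, and both overlapped. The fold change of Ighd, the heavy chain that naive B cells add, was 0.58 ± 0.27 on the log2 scale (adjusted p by edgeR 0.367 and 0.0732), and that of Ighm, the earlier heavy chain, was -0.51 ± 0.29 (0.443 and 0.0402). The Ighm call was lost without Sham 3, where its adjusted p was 0.158, and without Sham 4, MI-E 2 or MI-E 4 (0.0817 to 0.133). Pou2af1, a B-cell coactivator (-1.05 ± 0.39), passed as lower, and Btla, an inhibitory receptor (0.76 ± 0.29), as higher, though limma on log2(TPM + 1) did not call Btla (0.54, adjusted p 0.0903).

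Plasma and dendritic cells had mixed and lower patterns. Among 22 plasma-cell genes 4 passed as higher and 5 as lower, beside 7.42% and 7.73% of all genes. The higher count was 2 without Sham 1, Sham 3, Sham 4 or MI-E 2, and limma on log2(TPM + 1) called 2 higher and 7 lower. The lower genes were Slamf7, Sdc1, Irf4, Jchain and Mzb1, and the higher ones Fkbp11, Ssr4, Txndc5 and Xbp1. Slamf7, a surface receptor, was 32.0, 35.5 and 37.8 CPM in Sham and 11.3, 8.67 and 11.6 CPM in MI-E, and Sdc1, which encodes CD138, was 18.9, 22.5 and 20.1 CPM in Sham and 9.18, 7.29 and 9.28 CPM in MI-E. For both, the groups were apart (-1.73 ± 0.57 and -1.25 ± 0.36), while Fkbp11 (1.27 ± 0.50) and Ssr4 (0.59 ± 0.20), of the secretory pathway, were higher. Of 19 dendritic-cell genes 11 passed as lower and 1 as higher, with a median of -0.61. Leaving out 1 library left 8 to 12 lower. Siglech, of plasmacytoid cells that make interferon, was 48.5, 49.8 and 43.2 CPM in Sham and 27.0, 25.4 and 32.8 CPM in MI-E. Cd209a was 11.8, 12.6 and 11.2 CPM in Sham and 5.58, 5.38 and 6.05 CPM in MI-E, so neither overlapped. One gene of this list, Runx2 (-0.61 ± 0.14), is also a bone gene, and limma on log2(TPM + 1) did not call it (adjusted p 0.0855).

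**Figure D4:**
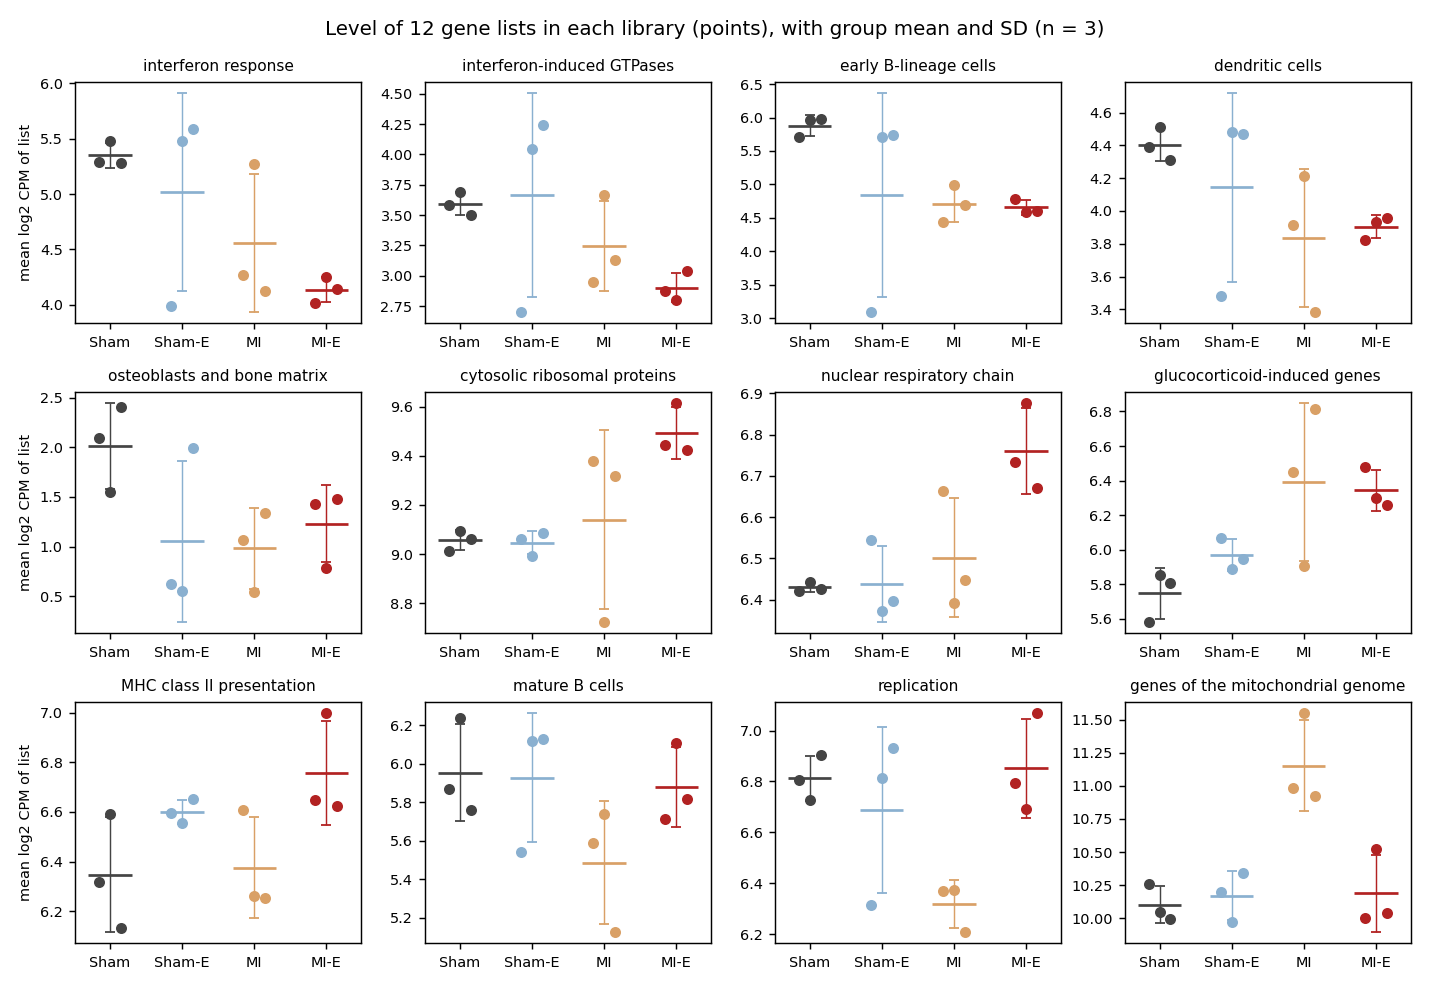
Level of 12 gene lists (y axis, mean log2 CPM of members, scale differs by panel) in each library of the 4 groups (x axis), with group mean and SD (n = 3). MI-E lies below Sham without overlap for the interferon, GTPase, early B-lineage, dendritic and bone lists, and above it for ribosomal, respiratory, glucocorticoid and MHC class II genes.

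Bone matrix genes were the most unevenly lower list. The median over 23 genes was -0.61. Of the 21 genes in the 6-library fit 8 passed as lower and 1 as higher, beside 7.73% and 7.42% of all genes. The lower count was 4 without MI-E 2, 5 without Sham 4 or MI-E 3, and 6 otherwise. Col1a1, the main collagen of bone, was 43.6, 42.4 and 84.1 CPM in Sham and 10.1, 3.86 and 10.2 CPM in MI-E (-2.81 ± 0.57; edgeR adjusted p 0.259 and 0.0184). It lost its call without MI-E 2 (adjusted p 0.0629) and without MI-E 4 (0.0605). Bglap, which encodes osteocalcin, had 65, 66 and 127 counts in Sham against 8, 1 and 2 in MI-E. It had 3, 10 and 13 counts in Sham-E and 7, 5 and 8 in MI. Reads of Bglap and its near copy Bglap2 may be split between them, so both are uncertain. Alpl, the phosphatase of mineralising cells and chosen after its value was seen, was 3.41, 3.57 and 5.20 CPM in Sham and 0.973, 1.33 and 1.14 CPM in MI-E. All 3 genes were lower in each MI-E library, while the stromal chemokine Cxcl12 was 188, 82.5 and 105 CPM in Sham and 267, 192 and 300 CPM in MI-E (1.02 ± 0.52, not passing, edgeR adjusted p 0.409 and 0.0846). Nt5e, a stromal ectoenzyme, was lower (-1.53 ± 0.42), against the direction of its list. The 24 stromal niche genes had a median of 0.41, with 18 positive and 6 negative fold changes. In the 6-library fit 3 of 23 passed as higher and 1, Nt5e, as lower, beside 7.42% and 7.73% of all genes. Over the omissions 2 to 7 passed as higher and 1 or 2 as lower. Relative to all genes on the log2(TPM + 1) scale, which shrinks differences of low genes, the bone median was -0.07. Limma on that scale called 8 bone genes lower and 0 higher, beside 1520 and 225 of 14466 over all genes.

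Ribosomal protein genes were higher together by a small amount. The level of the 77 cytosolic genes was 9.01, 9.09 and 9.06 in Sham and 9.44, 9.62 and 9.42 in MI-E, and 75 of the 77 genes had all MI-E libraries above all Sham libraries (19% over all genes). In the 6-library fit 59 passed as higher, with a background of 7.42%, and 0 as lower. That count was 10 without Sham 4, 11 without Sham 1, 20 without Sham 3 and 28 without MI-E 2. Over all genes, higher calls in those fits were 271, 465, 452 and 482, in the same order. The median of the list stayed between 0.38 and 0.48 over the 6 omissions. Limma on log2(TPM + 1) called 10 higher, beside 225 of 14466 over all genes. EdgeR on 12 libraries called 0 of the list even without Sham-E 1, where 89 of 15496 genes were called higher. These are short genes, with a median exon length of 1781 bp against 4039 bp for all genes, and their median on the TPM scale was 0.17, or 0.32 relative to all genes. Rpl38, a protein of the large subunit, was 117, 134 and 136 CPM in Sham and 242, 276 and 203 CPM in MI-E (0.90 ± 0.22; edgeR adjusted p 0.259 and 0.00177). The other members named by the rule, Rpl35a, Rpl29 and Rpl8, had log2 fold changes of 0.69, 0.58 and 0.56, and limma on log2(TPM + 1) did not call Rpl29 (adjusted p 0.0537) or Rpl8 (0.0766).

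Nuclear genes of the respiratory chain followed the same direction. The median of 50 genes was 0.34, and 23 passed as higher and 0 as lower, beside 7.42% and 7.73% of all genes. The higher count was 7 without Sham 4, 11 without Sham 1 or Sham 3 and 12 without MI-E 2. Over all genes it was 271 without Sham 4, 465 without Sham 1, 452 without Sham 3 and 482 without MI-E 2. Cox5b, a subunit of cytochrome c oxidase (chr1:36691449-36693681, mm10), was 47.8, 53.1 and 44.8 CPM in Sham and 86.0, 88.3 and 75.4 CPM in MI-E. Among the higher genes that the rule for naming by rank admits, it had the smallest p in the 12-library fit. Its log2 fold change was 0.78 ± 0.12 (edgeR adjusted p 0.142, and 0.00129 with 6 libraries). Limma on log2(TPM + 1) did not call it (adjusted p 0.0929), and on that scale 1 gene of the list was called. Ndufa8 (0.56 ± 0.12) and Ndufa10 (0.50 ± 0.13) of complex I and Uqcrq (0.60 ± 0.18) of complex III passed in the 6-library fit but not on the TPM scale. Mitochondrial ribosomal proteins had a median of 0.24 and glycolysis genes one of 0.38. Their median exon lengths were 2394 and 4426 bp, against 4039 bp for all genes. Limma on log2(TPM + 1) called 1 and 3 of them higher, beside 225 of 14466 over all genes. In the 6-library fit 14 of 78 and 11 of 31 passed as higher, beside 7.42% of all genes. Without Sham 4 these counts were 2 and 3, without Sham 3 they were 6 and 4, without Sham 1 both were 5, and without MI-E 2 they were 4 and 6. Ldha, which makes lactate, was 476, 436 and 436 CPM in Sham and 724, 785 and 611 CPM in MI-E. Genes of the mitochondrial genome did not pass, with a median of 0.04 over 7 genes.

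Myeloid genes were higher in part. Of 24 genes of secondary granules, which neutrophils form as they mature, 8 passed as higher and 1 as lower, and of 32 mature neutrophil genes 5 as higher and 4 as lower, beside 7.42% and 7.73% of all genes. The mature list rested in part on MI-E 3, whose level was 8.10 against 7.54 and 7.49 in MI-E 2 and 4: its median was 0.27 with all libraries and -0.03 without MI-E 3, where 5 genes passed as higher and 6 as lower. Over the other omissions 3 to 8 passed as higher and 2 or 3 as lower. Limma on log2(TPM + 1) called 3 higher and 5 lower, beside 225 and 1520 of 14466 over all genes. Vcan, a matrix proteoglycan of classical monocytes, was 33.1, 23.9 and 22.2 CPM in Sham and 185, 154 and 170 CPM in MI-E. The groups were far apart (2.68 ± 0.92), with an adjusted p of 0.283 in the 12-library and 2.72e-05 in the 6-library edgeR fit. Sham-E 1 reached 386 CPM, against 24.2 and 20.3 CPM in Sham-E 2 and 3. Cx3cr1, of non-classical monocytes, was lower, 36.4, 43.5 and 35.4 CPM in Sham and 10.4, 14.6 and 16.5 CPM in MI-E. Wfdc17 was 17.7, 20.1 and 26.5 CPM in Sham and 108, 171 and 102 CPM in MI-E, and Ifitm1 was 35.4, 39.8 and 35.0 CPM in Sham and 141, 187 and 119 CPM in MI-E. Each was higher in all MI-E libraries, which for Wfdc17, named by rank, was a term of its choice. Wfdc21 (0.98 ± 0.23), Ifitm6 (1.25 ± 0.43), Hp, which encodes haptoglobin (0.84 ± 0.32), Ctsg (0.86 ± 0.46) and the chemotactic receptor Fpr2 (0.70 ± 0.20) passed too. Fcnb of the primary granule list (-0.64 ± 0.25) and Fgl2 of the mature list (-0.77 ± 0.21) passed as lower. Fcnb lost its call without Sham 1 (edgeR adjusted p 0.0526) and without Sham 4 (0.0679). Of 19 primary granule genes 5 passed as higher and 1 as lower, and of 23 monocyte genes 7 and 3. Limma on log2(TPM + 1) called 3 higher and 3 lower for primary granules, and 4 higher and 5 lower for monocytes. Il1rn, the antagonist of interleukin-1, was lower (-1.28 ± 0.48).

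**Figure D5:**
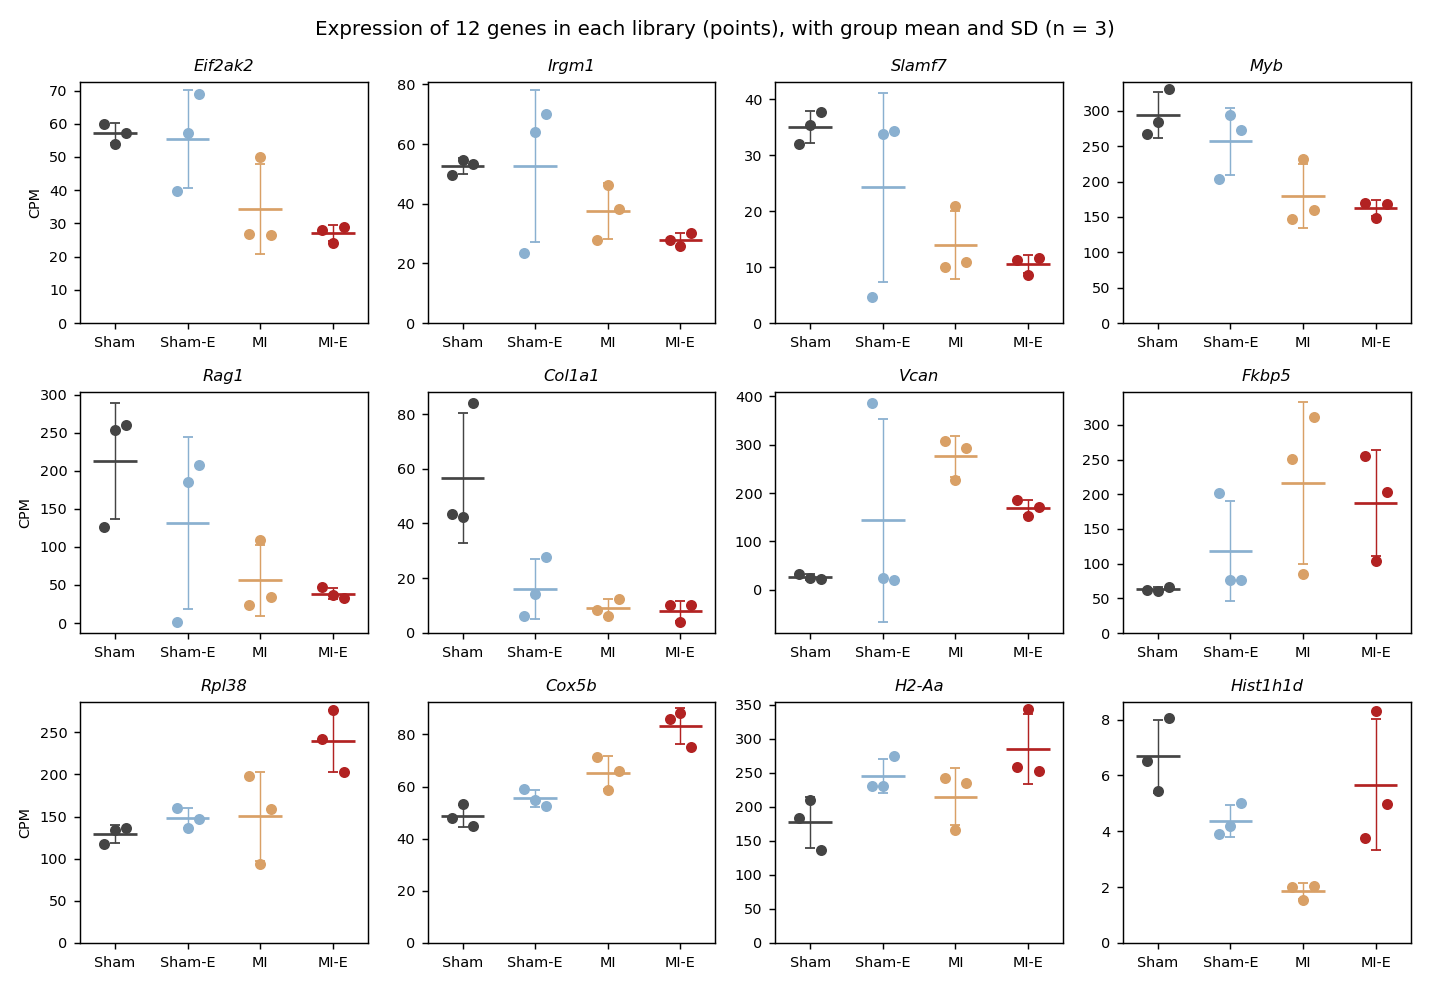
Expression of 12 genes (y axis, CPM, scale differs by panel) in each library of the 4 groups (x axis), with group mean and SD (n = 3). Eif2ak2, Irgm1, Slamf7, Myb, Rag1 and Col1a1 are lower and Vcan, Fkbp5, Rpl38, Cox5b and H2-Aa higher in each MI-E library than in any Sham library, while Hist1h1d overlaps.

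Genes induced by glucocorticoids had the highest median of all lists with 10 or more members, 0.53 over 26 genes. Of them 8 passed as higher and 0 as lower, beside 7.42% and 7.73% of all genes. The higher count was 5 without any 1 of the Sham libraries, 6 without MI-E 2 or MI-E 4, and 8 without MI-E 3. Fkbp5, a chaperone of the glucocorticoid receptor, was 62.2, 61.0 and 66.9 CPM in Sham and 255, 104 and 204 CPM in MI-E. The MI-E libraries differed among themselves, and all were above Sham (1.57 ± 0.51; edgeR adjusted p 0.279 and 0.0186). Its call was lost without Sham 1 (adjusted p 0.0701), Sham 3 (0.0598), Sham 4 (0.0714) or MI-E 4 (0.0878). On log2(TPM + 1), limma did not call Fkbp5 (0.0695) and called 4 genes of the list higher and 2 lower. Klf13 (0.76 ± 0.25), which was not called on that scale (adjusted p 0.128), and Mt2 (1.30 ± 0.31) also passed, though 73.5% of Mt2 exon bases overlap another gene. Ddit4 did not pass (1.89 ± 0.55, edgeR adjusted p 0.272 and 0.0604).

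The genes of antigen presentation and of T cells that passed were all higher. All 12 MHC class II genes had positive fold changes, with a median of 0.47, and 5 passed, beside 7.42% of all genes. H2-Aa was 184, 211 and 136 CPM in Sham and 259, 344 and 252 CPM in MI-E (0.69 ± 0.20; edgeR adjusted p 0.259 and 0.0288). It lost its call without Sham 1 (0.0786), Sham 4 (0.0925), MI-E 2 (0.0549) or MI-E 3 (0.0697), and for the whole list the count was 0 without Sham 1, Sham 4 or MI-E 3 and 1 without MI-E 2. Of 20 T-cell genes 4 passed as higher, 1 without Sham 1 or Sham 4 and 2 without MI-E 3 or MI-E 4, and the list levels overlapped (2.70, 3.14 and 2.61 in Sham, 2.99, 3.30 and 3.19 in MI-E). On log2(TPM + 1), limma called 0 genes of either list, with adjusted p of 0.0848 for H2-Aa and 0.0504 for Tcf7. Tcf7, a factor of naive T cells, was 12.5, 17.0 and 12.5 CPM in Sham and 22.5, 27.5 and 23.5 CPM in MI-E, with no overlap.

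Several single genes were named by their rank in the 12-library fit, and Slc7a11 as a member of the amino acid response list. Khk, ketohexokinase of fructose metabolism, was 19.9, 22.1 and 21.8 CPM in Sham and 36.7, 39.7 and 40.7 CPM in MI-E. Sdhaf1, an assembly factor of complex II, was also higher (0.93 ± 0.19), but 69.6% of its exon bases overlap E130208F15Rik, which runs the other way, so without strand their reads cannot be told apart. Slc9a7, which exchanges sodium and protons across organelle membranes, was 8.11, 8.33 and 8.82 CPM in Sham and 3.43, 2.72 and 3.00 CPM in MI-E (-1.46 ± 0.25; edgeR adjusted p 0.180 and 9.27e-04). Edem3, of protein quality control in the endoplasmic reticulum, was 100.4, 102 and 97.1 CPM in Sham and 57.4, 45.9 and 58.0 CPM in MI-E. The potassium channel Kcna3 (-1.96 ± 0.35) and Sfmbt2 (-1.87 ± 0.35) were lower too. Slc7a11, the cystine transporter, was 12.6, 11.6 and 10.3 CPM in Sham and 2.20, 3.19 and 1.96 CPM in MI-E. All of these had groups that did not overlap. For the genes named by rank this was a term of their choice, so it is no further result. Over all genes 36.1% met it.

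The sodium-glucose transporters were scarcely detected. Slc5a2 was 0.555, 0.410 and 0.834 CPM in Sham and 0.592, 1.33 and 1.502 CPM in MI-E, and Slc5a1 was too low to test, with at most 1 count in any library. The 19 genes of sodium transport had a median of -0.05, with 3 passing as lower (7.73% over all genes). Among them Atp1b1, a subunit of the sodium pump, was 117, 174 and 157 CPM in Sham and 80.4, 63.4 and 71.7 CPM in MI-E.

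Some lists had medians farther from 0 in MI than in MI-E; MI and MI-E are compared with the same Sham libraries, so the values are given side by side and not tested against each other here. MI also stood apart in insert length, 263.3 to 265.2 bp, below both other groups, and had 19337, 18051 and 18528 genes detected, against 19297 to 19696 in Sham and 19126 to 19499 in MI-E; the part of either in the values below was not tested. Histone cluster genes had a median of -0.15 over 56 genes in MI-E against Sham and of -1.41 in MI against Sham, both in the 12-library fit. In the 6-library fit the former was -0.18, and ran from -0.30 without MI-E 3 to 0.19 without Sham 4. Hist1h1d, a linker histone, was 6.53, 5.46 and 8.06 CPM in Sham, 3.76, 8.29 and 4.96 CPM in MI-E and 2.02, 1.54 and 2.02 CPM in MI. The MI-E libraries thus overlap Sham and lie above MI. Replication genes had medians of 0.06 and -0.47, and their level was 6.80, 6.73 and 6.90 in Sham, 6.79, 6.69 and 7.07 in MI-E and 6.37, 6.37 and 6.21 in MI. The mitochondrial gene mt-Nd6, a subunit of complex I, was 202, 169 and 144 CPM in Sham, 196, 262 and 169 CPM in MI-E and 432, 651 and 485 CPM in MI. Early B-lineage genes had medians of -1.20 in MI-E and -1.18 in MI, each against Sham. The interferon response had medians of -1.19 and -0.53, and MI 2 was the MI library near Sham.

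A few lists rested on 1 library. Immediate early genes, which respond to stimulation within minutes, had a median of 0.32, but their level was 6.14 in MI-E 3 against 5.04 and 5.03 in MI-E 2 and 4. Without MI-E 3 the median in the 6-library fit was -0.24. Dusp1, one of them, was 767 CPM in MI-E 3 and 351 and 234 CPM in MI-E 2 and 4. Inflammatory cytokines and chemokines had a level of 4.22 in MI-E 3 and of 3.32 and 3.27 in the others, and a median of -0.28 without it. Mature neutrophil genes, given above, and erythroid genes also changed sign: the erythroid median of 0.19 was -0.11 without MI-E 4, whose level was 9.54 against 8.79 and 8.89 in MI-E 2 and 3, and the calls were then 1 higher and 4 lower. Heat shock genes varied in Sham: Hspa1a had 37, 199 and 778 counts in Sham 1, 3 and 4 and 33, 16 and 19 in MI-E. Its log2 fold change of -3.74 ± 1.06 did not pass (edgeR adjusted p 0.259 and 0.127).

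Markers of other cell types in or around marrow were read as well. Skeletal muscle genes had levels of 0.28 to 0.89 in Sham and 0.38 to 1.07 in MI-E, so both groups held few such transcripts. Erythroid genes had a median of 0.19 with 2 of 30 higher (7.42% over all genes), and levels that overlapped (8.83 to 9.15 and 8.79 to 9.54). Natural killer genes had a median of -0.16 with 2 of 17 lower (7.73% over all genes), 0 without Sham 1, Sham 3 or MI-E 2 and 1 without any other library. Limma on log2(TPM + 1) called 5 of them lower, beside 1520 of 14466 over all genes. Megakaryocyte genes had a median of 0.44 but only 1 of 25 passing, and without Sham 3, which had a level of 2.99 against 4.15 and 4.08 in Sham 1 and 4, the median was 0.11. Adipocyte genes had levels of 3.61 to 3.70 in Sham and 3.96 to 4.11 in MI-E, with no overlap. Of 9 in the 6-library fit 4 passed as higher, Adipoq, which encodes adiponectin, Fabp4, Scd1 and Dgat2; the count was 0 without Sham 4, 1 without MI-E 2 and 2 otherwise, with 2 others lower without MI-E 3, and limma on log2(TPM + 1) called 0 higher and 1 lower. Osteoclast genes had levels of 3.61 to 3.76 in Sham and 3.93 to 4.16 in MI-E, also apart. Of them 1 of 12 passed as higher (7.42% over all genes). Macrophage, endothelial and stem-cell genes had medians of 0.04, 0.03 and -0.19 in the 12-library fit. In the 6-library fit the endothelial median was -0.05, and ran from -0.15 without Sham 3 to 0.34 without Sham 1.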

How the data were processed

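A miRNeasy kit was used to extract total RNA, per the labels' protocols. Build mm10, RSEM, STAR 2.4.0j and CASAVA 1.8 are listed in the submitters' processing notes; neither strand setting nor annotation is given in the sources used here. The authors deposited expected counts of 53801 genes, whole as deposited, and TPM values, scaled by RSEM for length and to a common total per library. Columns of Sham and MI-E were matched to their groups by name; those of Sham-E and MI to single samples. Gene positions and exon lengths came from GENCODE M21, which holds 53706 of the genes.

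Genes were kept by edgeR's filterByExpr and scaled by TMM. In R 4.3.3, edgeR 4.0.16 (quasi-likelihood test) was run on 12 libraries with a mean per group (8 residual degrees of freedom) or to 6 (4), with Benjamini-Hochberg adjustment over all genes tested and a threshold of 0.05. SE was taken as the log2 fold change divided by the root of F. CPM are counts over TMM-scaled library size, and log2 CPM use a prior count of 2. Limma 3.58.1 was fitted to log2(TPM + 1), and DESeq2 1.42.0 to the counts. Statistics were tested on simulated data.

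Up to 15 genes per direction were to be named among called genes whose mean log2 CPM was 1 or more. Their MI-E and Sham libraries also had to lie apart. Gm and Rik symbols, clones, small RNA genes, pseudogenes and antigen-receptor segments were left out. As none passed in the 12-library fit, the 4 with the smallest p in each direction that met the other terms were taken. From each of 43 gene lists, up to 4 members with the smallest p were candidates, besides a fixed group of 20 genes. Members and lists were chosen with earlier results of these data known. Some candidate genes are not reported here. Alternatives were other scalings, filters, tools, blocks and each library left out.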

Additional observations from a re-analysis of the deposited data

How the results depend on the processing

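For the comparison of MI-E with Sham on 12 libraries, limma-voom and limma on log2(TPM + 0.1) called 0 genes. EdgeR called 0 with TMM, DESeq2 or upper-quartile factors or total counts. It also called 0 with a filter of 1 CPM in 3 libraries, or without the 20 most abundant genes. It called 3 with no filter, DESeq2 called 174, limma on log2(TPM + 1) called 1, and the fit to 6 libraries called 2192. Leaving out each library gave 0 to 250 calls: 250 without Sham-E 1, 1 without MI 3 and 0 otherwise. The 9 libraries without the Sham-E group, an alternative chosen after seeing the data, gave 148. The median of all genes, 0.02 with TMM, was -0.08 with total counts and -0.15 on log2(TPM + 1). The cause of these differences was not tested. With the replicate block by column number the count was 0. The numbers were not taken to pair the samples, since Sham and MI-E share only 2 numbers, whose deviations correlated at 0.143 and 0.08. The alternatives to the 6-library fit were chosen after seeing the data: DESeq2 called 2602 genes, limma-voom 2156, DESeq2 factors 2141 and limma on log2(TPM + 1) 1745, and leaving out each library gave 725 to 2329. Of the 104 genes followed, 1 changed sign: Hist1h2bg, -0.27 with all libraries, ran from -0.61 (without Sham 1) to 0.55 (without Sham 4) over omissions in the 12-library fit and from -0.60 to 0.56 in the 6-library fit. With 3 libraries a group, differences of the size of the respiratory and ribosomal genes were called or not depending on 1 library.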
